A study of Mus musculus with 21 samples.

Results

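The mitochondrial chaperones and proteases described here are 10 mouse genes, taken by gene symbol from a table of 41608 genes: Hspd1, Hspe1, Hspa9, Trap1, Grpel1, Dnaja3, Lonp1, Clpp, Clpx and C1qbp. All 10 passed the filter on low counts that left 12187 genes to test, with at least 185 counts in every library. Apart from C1qbp, their products help to fold, refold and degrade proteins in the mitochondrial matrix. This compartment inside the inner membrane holds most enzymes of the TCA cycle. Nearly all matrix proteins are made in the cytosol and cross the membranes unfolded. The mitochondrial Hsp70 (Hspa9) with its exchange factor Grpel1 helps to pull them in, and with the J-domain protein Dnaja3 helps them to fold, the Hsp60 chamber (Hspd1) with its lid Hsp10 (Hspe1) closes around them to let them fold, and the AAA+ proteases Lonp1 and ClpXP (Clpx, the unfoldase, and Clpp, the peptidase) break down those that fail. Trap1 is the Hsp90 of mitochondria, and C1qbp is an acidic matrix protein needed for mitochondrial translation.

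The study was made to learn what HSF1, which switches on heat shock genes, does for the transcription program of c-MYC, a driver of cell growth, in immortalized mouse embryonic fibroblasts (MEFs). RNA came from 12 libraries in 4 groups of 3. All 4 groups are labelled Hsf1 WT: siControl LacZ and siHsf1 LacZ are MEFs stably expressing LacZ, a bacterial enzyme used as a control, and siControl GCN5 and siHsf1 GCN5 are MEFs stably expressing V5-tagged GCN5, a histone acetyltransferase (gene Kat2a), each given 10 nM control or Hsf1-targeting siRNA for 2 days. c-MYC was mapped by CUT&RUN, which cuts DNA around an antibody-bound protein, in MEFs kept in ethanol (Hsf1 WT) or given 4-hydroxytamoxifen for 7 days to delete Hsf1 (Hsf1 CKO), with 1 list of peaks for each genotype. The antibody is labelled c-Myc/N-Myc. The labels call the RNA libraries triplicates and do not say whether they were separate cultures, nor whether each line is 1 clone, so p-values measure the spread between these libraries. RNA of MEFs with c-Myc knocked down was not analysed here.

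Hspd1 and Hspe1 lie head to head on chromosome 1 and share the DNA between their starts. In the deposited table Hspd1 runs on the minus strand over chr1:55077834-55088217 and Hspe1 on the plus strand over chr1:55088148-55091317, so that the 5′ ends of their gene models overlap by 69 bases. RefSeq (build GRCm38.p6) also gives Hspd1 a shorter model that starts at 55087932, which leaves 215 bases between that start and the start of Hspe1. These bases are shown because they hold the binding motif of HSF1, the heat shock element, made of GAA units and their complement TTC that alternate at a spacing of 2 bases. The window chr1:55087933-55088147, read on the plus strand towards Hspe1, has 4 such units in a row, in capitals.
Hspd1-Hspe1: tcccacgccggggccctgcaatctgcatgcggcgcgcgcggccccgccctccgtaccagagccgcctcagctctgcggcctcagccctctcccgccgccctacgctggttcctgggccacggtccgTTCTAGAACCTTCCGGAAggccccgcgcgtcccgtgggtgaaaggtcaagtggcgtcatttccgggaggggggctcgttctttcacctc
The first base of the block lies 89 bases before the start of Hspe1. The motif of 3 alternating units (GAA, TTC and GAA, each 2 bases apart), searched on both strands, occurred in 0.603% of 32851 RefSeq promoter windows (250 bases before to 50 after a start). Of the 10 genes, 9 matched a promoter window, Hspa9 not among them, and Hspd1 and Hspe1 held this motif, through the same bases.

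A pair of further promoters, chosen after the response described below was seen, is shown for contrast. The RNA of C1qbp was lower after Hsf1 knockdown in the LacZ line, and that of Lonp1 stayed closest to the level of its controls. Both are the 250 bases before the RefSeq start, on the minus strand, chr11:70983027-70983276 and chr17:56626904-56627153. The capitals mark CACGTG, the E-box to which MYC with its partner MAX binds.
C1qbp: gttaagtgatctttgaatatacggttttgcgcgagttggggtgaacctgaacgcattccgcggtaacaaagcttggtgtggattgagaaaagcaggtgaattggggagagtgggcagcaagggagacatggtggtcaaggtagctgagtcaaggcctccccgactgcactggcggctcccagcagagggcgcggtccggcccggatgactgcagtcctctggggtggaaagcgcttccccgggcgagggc
Lonp1: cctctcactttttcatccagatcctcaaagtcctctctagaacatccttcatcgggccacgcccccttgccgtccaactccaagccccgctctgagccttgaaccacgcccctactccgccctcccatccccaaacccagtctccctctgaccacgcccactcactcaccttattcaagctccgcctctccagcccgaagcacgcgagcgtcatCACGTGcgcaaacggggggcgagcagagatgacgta
The E-box of Lonp1 begins 36 bases before its start, and CACGTG occurred in 7.15% of all promoter windows and in 10.0% of the 11835 windows of tested genes. The windows of C1qbp, Trap1, Grpel1 and Clpx held none of the motifs searched, which were CACGTG, the pairs of units GAANNTTC and TTCNNGAA, the 3 alternating units and the NRF1 motif, each on both strands and with 2-unit matches also counted inside the 3-unit one. The NRF1 motif, whose factor is a known regulator of nuclear genes for mitochondrial proteins, is held by 4.60% of all windows and by 10.2% of those of tested genes. It occurred at Dnaja3 in 2 places, 48 bases before and 38 bases after the start. Clpp held TTCCGGAA 34 bases after its start, a 2-unit match of TTCNNGAA, which 8.52% of all windows hold. The window of the upstream Hspd1 model, which starts at 55088243 inside the Hspe1 gene, held CACGTG 80 bases and the NRF1 motif 59 bases before that start.

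Total gene counts ran from 7.22 to 8.16 M (mega) per library in the LacZ line and from 3.69 to 4.27 M in the GCN5 line, so depth and line coincide. Libraries were scaled by the summed ERCC spike-in RNAs of subgroup B, which follow the RNA added per sample. TMM scaling, which assumes that most genes keep their level, is given beside each result. Gene counts spread more between libraries of 1 group after spike-in scaling than after TMM scaling (biological coefficient of variation 0.274 against 0.0890). Hsf1 itself, the target of the siRNA, stood at 128, 128 and 134 CPM (counts per megacount after TMM scaling) in siControl LacZ and at 57.6, 55.4 and 47.8 CPM in siHsf1 LacZ. In GCN5 cells it went from 137, 121 and 138 CPM to 67.9, 74.5 and 73.0 CPM, and its residual level after knockdown was higher there than in the LacZ line by 0.42 ± 0.08 on the log2 scale (± SE, edgeR adjusted p = 0.00019 with TMM scaling). The log2 fold change of Hsf1 was -1.28 ± 0.08 in the LacZ line and -0.88 ± 0.08 in the GCN5 line with TMM scaling, and -1.65 ± 0.33 and -0.93 ± 0.32 with spike-in scaling, where the latter did not pass. Kat2a, the gene of GCN5, was at 217 ± 2.80 CPM (mean ± SD, n = 3) in siControl LacZ and at 247 ± 14.5 CPM in siControl GCN5. Under siControl the lines did not differ in Kat2a at an edgeR adjusted p under 0.05 without a replicate block. The log2 difference was 0.19 ± 0.06 (adjusted p = 0.051) with TMM scaling and -0.20 ± 0.32 (adjusted p = 0.64) with spike-in scaling. The TMM-scaled siControl groups did not overlap, and a replicate block gave an edgeR adjusted p of 0.044. Under siHsf1, Kat2a was at 124 ± 6.30 CPM in the LacZ line and at 248 ± 3.96 CPM in the GCN5 line. Whether these counts include RNA of the extra GCN5, whose species is not stated, was not tested. Of 10 fibroblast markers, 9 passed the filter and Thy1 was at or near 0. The summed fibroblast markers were 6419 to 7251 CPM in siControl LacZ, 9741 to 10844 in siHsf1 LacZ, 8006 to 8110 in siControl GCN5 and 8388 to 8608 in siHsf1 GCN5. Among markers of other cells, no endothelial marker passed the filter. Of 5 epithelial markers Krt18, a keratin, was the 1 that passed, Epcam was at 0 in all libraries, and the sum was 44.9 to 61.4 CPM in the LacZ line and 31.3 to 40.6 CPM in the GCN5 line. Of 5 haematopoietic markers Adgre1 and Cd3e were at 0 in all libraries, and the sum (mostly Cd68) reached at most 8.61 CPM in siControl LacZ but 14.8 CPM in siHsf1 LacZ. The part of these differences in the results below was not tested, and in bulk RNA fewer cells of a type cannot be told apart from less RNA per cell.

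In control cells Hspd1, Hspe1 and Hspa9 were listed far above the other 7 genes, and the proteases Lonp1 and Clpp above the folding proteins Trap1, Grpel1 and Dnaja3. In siControl LacZ, on the FPKM scale, which allows for transcript length, Hspd1 led with 365 ± 19.7 FPKM (mean ± SD, n = 3), followed by Hspe1 with 265 ± 31.7 and Hspa9 with 222 ± 4.60. These 3 genes stood at percentile 97.8 or above among the tested genes. Lonp1 came next with 89.5 ± 2.02 FPKM, then Clpp with 53.6 ± 4.35, C1qbp with 43.8 ± 4.62, Trap1 with 42.2 ± 0.189 and Grpel1 with 33.9 ± 1.64. Dnaja3, at 21.4 ± 0.811 FPKM, and Clpx, at 19.1 ± 0.685, were lowest, at percentiles 72.2 and 69.5. Neighbours in this order did not overlap between libraries, except C1qbp and Trap1. The peptidase Clpp was thus listed well above its unfoldase partner Clpx, and Hspa9 well above its partners Grpel1 and Dnaja3.

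**Figure D1:**
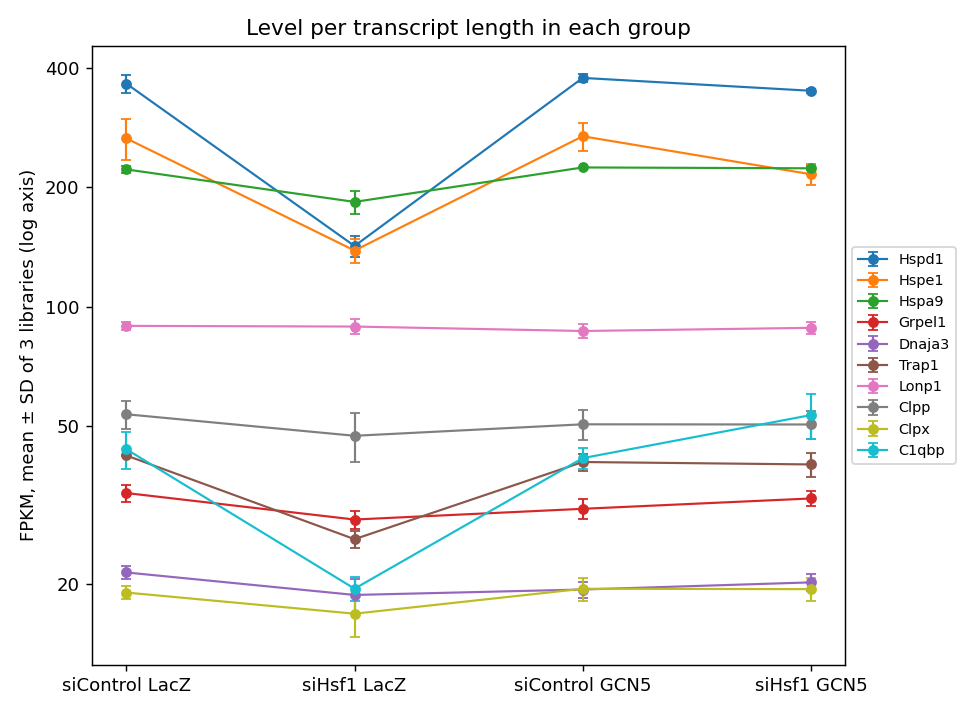
Level of each gene per transcript length in the 4 groups, as mean FPKM with SD of 3 libraries on a log axis. Hspd1, Hspe1 and Hspa9 lie far above the rest, Hspd1 and Hspe1 fall below Hspa9 in siHsf1 LacZ, and Lonp1 stays between 86.9 and 89.5 FPKM in all groups.

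Hsf1 knockdown in the LacZ line lowered the Hsp60 and Hsp10 chaperonin, Trap1 and C1qbp. With spike-in scaling and no replicate block, 4 of the 10 genes were lower at an edgeR adjusted p under 0.05, and none was higher. Of all tested genes, 6.03% were called lower and 7.02% in either direction. With the replicate number as a block, spike-in scaling called 9 of the 10 lower, beside 3369 of the 12187 tested genes. With TMM scaling, 6 of 10 were lower (19.5% of tested genes lower, 40.6% called), Hspa9 and Grpel1 being added. The median over the 10 genes was -0.61 on the log2 scale with spike-in scaling, beside -0.35 over all tested genes, and -0.23 beside 0.02 with TMM scaling. The siHsf1 libraries of 6 genes lay wholly below the siControl libraries after TMM scaling, as did those of 23.5% of all tested genes.

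Hspd1, the chamber subunit, had TMM-scaled levels of 897, 997 and 949.6 CPM in siControl LacZ and of 384, 347 and 391 CPM in siHsf1 LacZ. All 3 knockdown libraries were far below the controls, also on the spike-in scale, where the controls were at 1451, 939 and 1150.4 CPM and the knockdown libraries at 502, 232 and 369 CPM. The log2 fold change was -1.68 ± 0.32 (adjusted p = 4.9e-05, edgeR) with spike-in scaling and -1.34 ± 0.06 (adjusted p = 6.1e-15) with TMM scaling, or 0.395 times the control level on the latter. Hspd1-ps3, a pseudogene of Hspd1, carried 77 to 408 counts per library against 2786 to 7899 for Hspd1, so that reads of near-identical copies may be split between them.

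Hspe1, the lid of the chamber, was at 202, 233 and 185 CPM in siControl LacZ and at 101, 111 and 116 CPM after knockdown. The groups did not overlap with either scaling. The log2 fold change was -1.29 ± 0.32 with spike-in scaling (edgeR adjusted p = 0.0045) and -0.92 ± 0.08 with TMM scaling (adjusted p = 3.4e-09). Without siControl LacZ replicate 1 or siHsf1 LacZ replicate 3 the spike-in adjusted p of Hspe1 was 0.058 and 0.061. The source does not state whether counting used the strand, so reads from the overlapping 5′ ends of Hspd1 and Hspe1 may have been assigned to either gene or to neither.

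Of the divergent pair, Hspd1 had the larger fold change in the LacZ line. The ratio of Hspd1 to Hspe1, in FPKM within each library and so free of any scaling, was 1.33, 1.28 and 1.54 in siControl LacZ. In siHsf1 LacZ it was 1.14, 0.935 and 1.01. These groups did not overlap (exact permutation test, two-sided, p = 0.1, the smallest that 3 against 3 libraries allow). In the GCN5 line the ratio was 1.33, 1.33 and 1.57 with siControl and 1.67, 1.68 and 1.53 with siHsf1, where the groups overlapped (exact p = 0.2).

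The mitochondrial Hsp70 system had smaller fold changes. Without a replicate block, Hspa9 and Grpel1 passed the test with TMM scaling and not with spike-in scaling, and Dnaja3 passed with neither. Hspa9 was at 675, 699.8 and 680.2 CPM in siControl LacZ and at 549.8, 617 and 555 CPM in siHsf1 LacZ. The TMM-scaled groups did not overlap, and the log2 fold change was -0.25 ± 0.05 (edgeR adjusted p = 0.00044). Spike-in scaling gave Hspa9 -0.64 ± 0.32 (adjusted p = 0.21) and groups that overlapped. Grpel1 was at 115, 121 and 109.8 CPM in the controls and at 95.2, 106 and 98.7 CPM after knockdown, with a log2 fold change of -0.20 ± 0.07 with TMM scaling (edgeR adjusted p = 0.019) and -0.59 ± 0.32 with spike-in scaling (adjusted p = 0.26). Their J-domain partner, Dnaja3, ranged from 56.2 to 60.0 CPM in the controls and from 46.8 to 56.7 CPM after knockdown. These ranges overlapped, and the log2 fold change of Dnaja3 was -0.17 ± 0.08 with TMM scaling (edgeR adjusted p = 0.12).

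Trap1, the mitochondrial Hsp90, was at 112, 112 and 113 CPM in siControl LacZ and at 65.8, 71.5 and 72.5 CPM in siHsf1 LacZ. The groups did not overlap with either scaling. The log2 fold change was -0.68 ± 0.07 with TMM scaling (edgeR adjusted p = 2.4e-08) and -1.07 ± 0.32 with spike-in scaling (adjusted p = 0.023). The spike-in call of Trap1 was lost in 4 of the 12 fits that left out 1 library, namely siControl LacZ replicate 1 or 3 and siHsf1 LacZ replicate 2 or 3, with adjusted p from 0.080 to 0.20.

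The proteases did not pass the test with either scaling in the fits without a replicate block. Lonp1 was at 265, 276 and 268 CPM in siControl LacZ and at 273, 282 and 259.6 CPM in siHsf1 LacZ, with a log2 fold change of 0.01 ± 0.06 with TMM scaling (edgeR adjusted p = 0.90) and -0.36 ± 0.32 with spike-in scaling (adjusted p = 0.51). The knockdown libraries of Lonp1 lay on both sides of the controls. Clpp ranged from 62.5 to 71.7 CPM in the controls and from 52.9 to 68.2 CPM after knockdown, and Clpx from 55.9 to 59.7 CPM and from 44.1 to 56.4 CPM. Both overlapped between groups, and both had a TMM-scaled log2 fold change of -0.16 (SE 0.10 for Clpp and 0.09 for Clpx).

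C1qbp was at 108, 111 and 91.2 CPM in siControl LacZ and at 43.4, 46.5 and 50.1 CPM in siHsf1 LacZ. Every knockdown library lay below every control with both scalings. The log2 fold change was -1.53 ± 0.33 with spike-in scaling (edgeR adjusted p = 0.00042) and -1.15 ± 0.09 with TMM scaling (adjusted p = 8.2e-10), or 0.452 times the control level. Hspd1 and C1qbp were called with spike-in scaling in 12 of 12 fits that left out 1 library. In the order of FPKM levels, Hspa9 with 184 ± 12.1 FPKM came first in siHsf1 LacZ, ahead of Hspd1 with 142 ± 8.87 and Hspe1 with 139 ± 9.80, which were not separated, and C1qbp (19.5 ± 1.37) was not separated from Dnaja3 (18.8 ± 1.85).

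**Figure D2:**
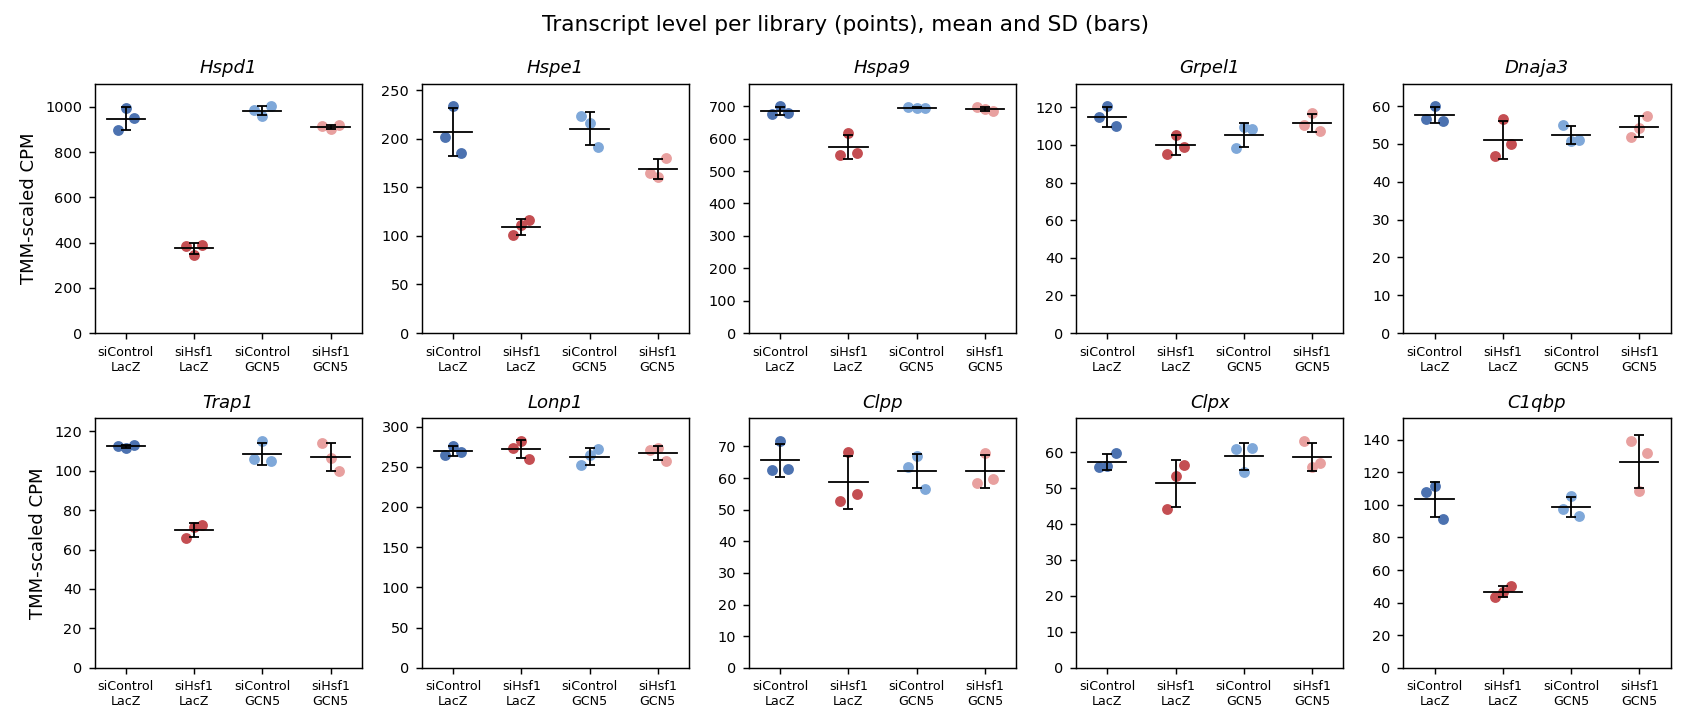
TMM-scaled CPM of each gene in the 12 libraries (points), with the group mean and SD (bars), each panel starting at 0. Hspd1, Hspe1, Trap1 and C1qbp are low in the 3 siHsf1 LacZ libraries, Lonp1 is level over the 4 groups, and C1qbp is at 108 to 139 CPM in siHsf1 GCN5.

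In the GCN5 line, Hsf1 knockdown changed none of the 10 genes at an edgeR adjusted p under 0.05 with either scaling. Few genes of the whole table were called: 0.0410% with spike-in scaling and 0.164% with TMM scaling, and an unadjusted p under 0.05 was met by 111 and 1177 of the 12187 genes; DESeq2 called 0 of the 10 as well. Hspd1 was at 988, 961 and 1003 CPM in siControl GCN5 and at 917, 902 and 918 CPM in siHsf1 GCN5. These TMM-scaled groups did not overlap, although the log2 fold change was only -0.11 ± 0.06 (edgeR adjusted p = 0.53). Hspe1 was at 223, 217 and 191 CPM and at 165, 161 and 180.0 CPM, without overlap, with a log2 fold change of -0.32 ± 0.08 (adjusted p = 0.16).

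For C1qbp the value in the GCN5 line was positive, without passing the test. It was at 97.4, 106 and 93.1 CPM in siControl GCN5 and at 139, 108 and 132 CPM in siHsf1 GCN5, where all 3 libraries lay above the controls after TMM scaling. The log2 fold change was 0.36 ± 0.10 (edgeR adjusted p = 0.16) with TMM scaling and 0.33 ± 0.32 with spike-in scaling, where the groups overlapped. Among all tested genes, 9.13% had TMM-scaled siHsf1 GCN5 libraries wholly above and 9.73% wholly below their controls, beside 1 and 2 of the 10. The other 7 genes had TMM-scaled log2 fold changes between -0.02 and 0.08, with overlapping groups. Trap1, for one, was at 106, 115 and 105 CPM in siControl GCN5 and at 114, 107 and 99.9 CPM in siHsf1 GCN5.

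**Figure D3:**
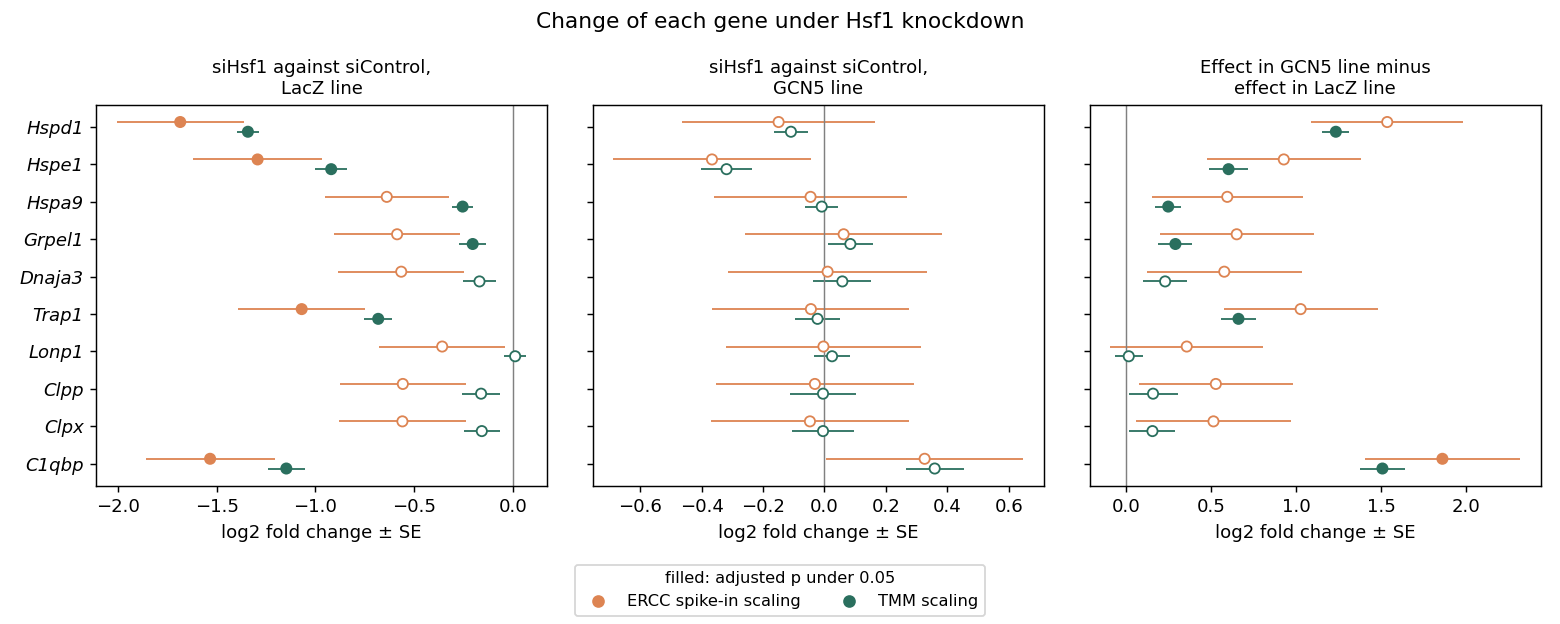
Log2 fold change with SE of each gene under Hsf1 knockdown in the LacZ line, in the GCN5 line, and the difference of these effects, with spike-in scaling (orange) and TMM scaling (green). Filled points have an edgeR adjusted p under 0.05 in the fits without a replicate block: 4 and 6 genes in the LacZ line, none in the GCN5 line, 1 and 6 for the difference.

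Between the lines under control siRNA, none of the 10 genes differed at an edgeR adjusted p under 0.05 with either scaling, while 1.50% of all tested genes were called with spike-in scaling and 9.61% with TMM scaling, and an unadjusted p under 0.05 was met by 1424 and 2636 genes. DESeq2 called 0 of the 10 here too. The TMM-scaled log2 differences, GCN5 minus LacZ, ran from -0.14 (Dnaja3) to 0.05 (Hspd1). With spike-in scaling they ran from -0.53 to -0.33, around the median of -0.40 over all tested genes. The FPKM order of the first 8 genes was the same in siControl GCN5 as in siControl LacZ, with Hspd1 at 377 ± 8.54 FPKM and Lonp1 at 86.9 ± 3.35. Clpx and Dnaja3, last in both groups, were not separated in siControl GCN5.

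Under Hsf1 siRNA the GCN5 line held more Hspd1 and C1qbp RNA than the LacZ line with both scalings. In the fits without a replicate block, TMM scaling alone also gave more Hspe1, Hspa9 and Trap1. With spike-in scaling Hspd1 and C1qbp were higher (2 of 10, against 1.82% of all tested genes called higher and 5.44% called), by 1.21 ± 0.32 (edgeR adjusted p = 0.0054) and 1.39 ± 0.33 (adjusted p = 0.0011) on the log2 scale. With TMM scaling 5 of 10 were higher (22.2% of tested genes higher, 44.8% called). The TMM-scaled differences were 1.29 ± 0.06 for Hspd1, 0.62 ± 0.08 for Hspe1, 0.27 ± 0.05 for Hspa9, 0.61 ± 0.07 for Trap1 and 1.44 ± 0.10 for C1qbp, with edgeR adjusted p from 8.6e-15 to 0.00025. All 3 siHsf1 GCN5 libraries of Hspd1, Hspe1 and C1qbp lay above all siHsf1 LacZ libraries with both scalings. The share of all tested genes that did so is not given here, so this describes the libraries only. Lonp1 differed by -0.02 ± 0.06 (adjusted p = 0.77), and its libraries overlapped. The spike-in call of Hspd1 was lost without siHsf1 LacZ replicate 3, siHsf1 GCN5 replicate 1 or siHsf1 GCN5 replicate 2, with adjusted p from 0.052 to 0.062.

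The difference between the knockdown effects of both lines was itself tested as an interaction. It is built from the libraries of the comparisons above, which also share control libraries, so their values stand side by side and are not independent. Without a replicate block, C1qbp was the 1 gene of 10 that passed with spike-in scaling. Its effect in the GCN5 line exceeded that in the LacZ line by 1.86 ± 0.46 on the log2 scale (edgeR adjusted p = 0.018). Of all tested genes, 0.172% were called higher and 0.394% in either direction. Hspd1 had an interaction of 1.53 ± 0.45 (adjusted p = 0.096). With a replicate block, spike-in scaling called Hspd1, Hspe1, Trap1 and C1qbp, beside 855 tested genes in all. With TMM scaling 6 of 10 passed, all with a positive difference (11.0% of tested genes called higher, 22.0% called): Hspd1 by 1.23 ± 0.08, Hspe1 by 0.60 ± 0.12, Hspa9 by 0.25 ± 0.08, Grpel1 by 0.29 ± 0.10, Trap1 by 0.66 ± 0.10 and C1qbp by 1.51 ± 0.13. Dnaja3, Lonp1, Clpp and Clpx did not pass, with 0.01 ± 0.08 for Lonp1 (adjusted p = 0.93) and 0.15 to 0.23 for the rest. The spike-in call of C1qbp was lost in 6 of 12 fits that left out 1 library (siControl LacZ replicate 1, siHsf1 LacZ replicate 3, siControl GCN5 replicate 2 or 3, siHsf1 GCN5 replicate 1 or 2; adjusted p 0.054 to 0.16), and Hspd1 passed without siControl LacZ replicate 2 or siHsf1 LacZ replicate 1. Hsf1 itself had an interaction of 0.41 ± 0.11 with TMM scaling (adjusted p = 0.011), and the part of this weaker knockdown in the GCN5 line was not tested.

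Ratios within a library compare the genes without any scaling. Relative to Lonp1, in FPKM, Hspd1 stood at 4.07 ± 0.133 (SD, n = 3) in siControl LacZ and at 1.60 ± 0.161 in siHsf1 LacZ, or 0.393 times the control ratio. The GCN5 line gave 4.34 ± 0.180 and 3.96 ± 0.156, or 0.911 times. The C1qbp to Lonp1 ratio went from 0.489 ± 0.0486 to 0.219 ± 0.0233 in the LacZ line and from 0.479 ± 0.0380 to 0.604 ± 0.0854 in the GCN5 line, and the Trap1 to Lonp1 ratio from 0.472 ± 0.0122 to 0.292 ± 0.0222 and from 0.468 ± 0.0291 to 0.453 ± 0.0213. Lonp1 was taken as the reference because its level moved least, so this choice rests on the same data. In the LacZ line 7 of the 9 ratios to Lonp1 were lower after knockdown without overlap, as were those of 23.3% of the other tested genes, Clpp and Clpx being the exceptions (exact permutation tests, two-sided, p = 0.1 for the 7, the smallest possible, and 0.3 for Clpp and Clpx). Among GCN5 cells the ratios of Hspd1 and Hspe1 reached 0.1 (10.2% of the other tested genes were lower without overlap there), and the others had exact p from 0.2 to 0.8, so that no ratio could pass 0.05 in this design.

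Over the 12 libraries, the genes whose log2 CPM followed that of Hspd1 most closely, among the 8252 tested genes whose mean log2 CPM was 4 or more, were Ncl (Pearson's r = 0.995), Eef1a1, Ywhae, Polr2m and Rangap1. Of the other 9 genes, Trap1 came closest, at rank 178 (r = 0.966), and Hspe1 followed at rank 465 (r = 0.930), C1qbp at 470 (r = 0.930) and Hspa9 at 514 (r = 0.925). Lonp1 was at rank 5025 (r = -0.30). For Hspa9 the closest were Hspb8 (r = 0.987), Noc2l, Tars2, Grwd1 and Slc48a1. These correlations describe 12 libraries of 4 groups that were scaled together and whose depth differs by line. The 3 siHsf1 LacZ libraries stand apart, and the correlations carry no test.

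Related lists, chosen by function, are set beside the 10 genes in the LacZ line. Of all tested genes, 6.03% were called lower with spike-in scaling, and 19.5% lower and 21.1% higher with TMM scaling. The spike-in counts of the other mitochondrial chaperones and proteases lay near that share. Of 18 other mitochondrial chaperones and cofactors, spike-in scaling called 1 lower, Phb, a prohibitin of the inner membrane (-1.07 ± 0.32, edgeR adjusted p = 0.023). TMM scaling called 6 lower and 1 higher, Hscb, an iron-sulfur cluster co-chaperone named here after its value was seen (0.64 ± 0.17, adjusted p = 0.0034). Of 15 other mitochondrial proteases, spike-in scaling called 1 lower, Mipep, the intermediate peptidase that trims imported proteins (-1.19 ± 0.34, adjusted p = 0.015). TMM scaling called 8 lower and 1 higher, Lactb, also named after its value was seen (0.27 ± 0.11, adjusted p = 0.042). The list medians with TMM scaling were -0.20 and -0.25, near the -0.23 of the 10 genes and beside 0.02 over all tested genes.

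TCA cycle enzymes are imported mitochondrial proteins. Of the 18 listed, 3 were lower with spike-in scaling: Suclg2, a succinyl-CoA ligase subunit (-1.40 ± 0.33, edgeR adjusted p = 0.0017), Idh3a, an isocitrate dehydrogenase subunit (-0.96 ± 0.32, adjusted p = 0.046), and Mdh2, malate dehydrogenase (-0.94 ± 0.32, adjusted p = 0.047). TMM scaling called 14 of the 18 lower and none higher, with a median of -0.29. Over all tested genes, 6.03% were called lower with spike-in scaling and 19.5% with TMM scaling. Of 8 cytosolic chaperones 6 could be tested, and 5 were lower with spike-in and 6 with TMM scaling (median -0.87). Hspb1, a small heat shock protein, was at -1.38 ± 0.32, Hsp90aa1 at -1.29 ± 0.32, Hsp90ab1 at -1.25 ± 0.32 and Hsph1, an Hsp110, at -1.21 ± 0.32 with spike-in scaling.

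Of 9 stress transcription factors and kinases, which include genes of the integrated stress response, TMM scaling called 6 higher and none lower in siHsf1 LacZ, beside 21.1% of all tested genes called higher. Among the 6 were Eif2ak2, the kinase PKR (0.99 ± 0.08, edgeR adjusted p = 4.7e-10), and Ddit3, the factor CHOP (1.12 ± 0.12, adjusted p = 4.8e-07). Without a replicate block, spike-in scaling called none of the 9, and gave 0.62 ± 0.32 for Eif2ak2 and 0.73 ± 0.32 for Ddit3. With the block it called 2 of the 9 higher. In the GCN5 line no gene of these lists passed with spike-in scaling. With TMM scaling 4 of 6 cytosolic chaperones were lower there (0.0985% of all tested genes called lower), Hsph1 (-0.40 ± 0.06, adjusted p = 0.00080) and Dnajb1 (-0.50 ± 0.09, adjusted p = 0.0084), together with Hsp90aa1 and Hsp90ab1, named after their values were seen, and no gene of the mitochondrial lists was called. Kat2a and Myc also fell in siHsf1 LacZ, by 0.80 and 0.60 on the log2 scale with TMM scaling, and neither passed in siHsf1 GCN5.

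Peaks of c-MYC were present at the starts of all 10 genes in the WT list, which held 220037 peaks, where 77.1% of the tested genes had one within 1000 bases of their start. The CKO list was far shorter, with 6386 peaks, and had peaks at 8 of the 10 starts, beside 35.1% of the tested genes (34.1% in both lists). Trap1 and Grpel1 lacked a CKO peak. Their WT peaks were the lowest of the 10, with maximal coverages of 0.00548 and 0.00616 in the authors' units. A maximum can lie anywhere in a peak, and the top of the Grpel1 peak was 4409 bases before the start. With 1 list per genotype, no replicate error can be given for any peak, and whether libraries were pooled is not stated in the sources used here.

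Hspd1 and Hspe1 shared 1 peak in each list, since it covered both starts. In WT it ran over 7331 bases, chr1:55082750-55090080, with a maximal coverage of 0.0151, and in CKO over 2730 bases, chr1:55086667-55089396, with 0.0108. The CKO maximum was thus 0.718 times the WT one, the highest ratio among the 8 genes. Both peaks contain the 215 bases shown above. Their tops lay 422 (WT) and 518 (CKO) bases inside Hspd1, past the block of heat shock elements as seen from Hspe1.

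Among the others, Hspa9 had the tallest peaks, at 0.0342 in WT and 0.0238 in CKO (ratio 0.695). Clpp followed with 0.0233 and 0.0108 (0.465), and C1qbp had 0.0157 and 0.00649 (0.412), the lowest ratio. Lonp1 had 0.0151 and 0.00757 (0.503), Dnaja3 0.00958 and 0.00577 (0.602), and Clpx 0.00753 and 0.00397 (0.527), with tops 2436 (WT) and 1724 (CKO) bases before its start. Over the 4151 tested genes with peaks in both lists the median ratio was 0.527, with quartiles of 0.425 and 0.659. Of these ratios, 97.2% were under 1. The median is also the ratio of Clpx, whose maxima were 11 steps in both lists when counted in the steps described below. A ratio of 0.527 thus stands for equal heights in steps, and ratios under 1 do not by themselves show less c-MYC in CKO. The ratios of the 8 genes thus lie on both sides of the median, those of Hspd1, Hspe1 and Hspa9 above the upper quartile and that of C1qbp below the lower one. Lonp1, with the E-box beside its start, had its WT top 211 bases before the start, and its CKO peak (811 bases wide) ended 59 bases before it.

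**Figure D4:**
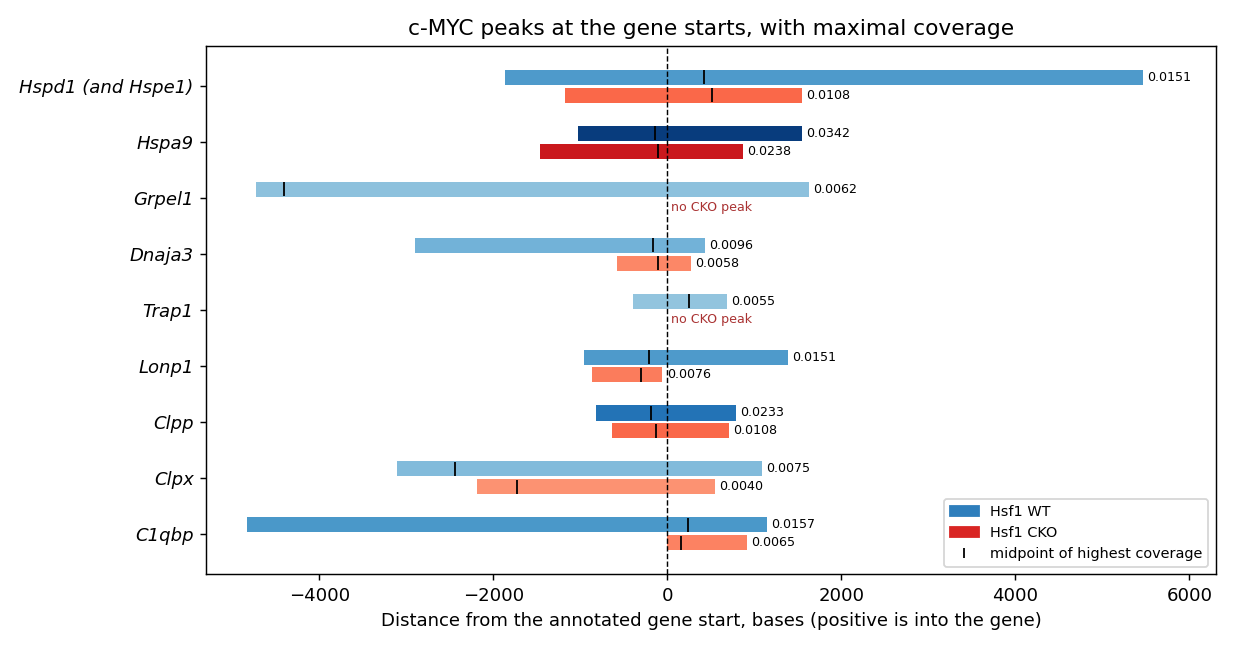
Extent of the c-MYC peak at each start in the Hsf1 WT list (blue) and the Hsf1 CKO list (red), by distance from the annotated start, with the maximal coverage beside each bar (darker is higher) and a tick at the midpoint of highest coverage. Grpel1 and Trap1 have no CKO peak. Where both exist the CKO maximum is lower in the authors' units, whose smallest step differs between the lists.

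The changes in RNA and the peak ratios can be set side by side. Hspd1 and C1qbp, the pair with the largest falls after Hsf1 knockdown, had the highest and the lowest ratio. Trap1, which also fell, had no CKO peak, nor had Grpel1. Without a replicate block, Grpel1 passed with TMM and not with spike-in scaling. RNA and peaks came from different MEFs, in which Hsf1 was reduced by different means, and no test was made across so few genes. Peak height also depends on what 1 unit is worth in each list. Heights were whole multiples of 0.000684 in WT and of 0.000361 in CKO (100% of peaks, within 0.02 of a multiple). Counted in these multiples, Hspa9 was at 50 in WT and 66 in CKO, Hspd1 with Hspe1 at 22 and 30, Dnaja3 at 14 and 16, Clpx at 11 and 11, Lonp1 at 22 and 21, Clpp at 34 and 30 and C1qbp at 23 and 18. The direction of the WT to CKO difference thus turned for 4 of the 8 genes, and 1 more was equal, when heights were counted in steps. Hspd1 and Hspe1 are both among the 4 through 1 shared peak. The ratio of Clpx, equal in steps, is also the median of 0.527 over all tested genes with both peaks. Such turns are therefore common among all tested genes and are no trait of these 8.

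The starts of 5 of the 10 genes, Hspd1, Hspe1, Grpel1, Lonp1 and Clpp, lay within 1000 bases of a gene start on the other strand, beside 21.5% of tested genes. The Grpel1 start faced that of the lncRNA 2210406O10Rik at 331 bases, Clpp that of Gm33509 at 157 bases, and the Lonp1 and Catsperd models overlapped by 7 bases. These 3 neighbours did not pass the filter on low counts.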

How the data were processed

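RNA libraries (12) were compared through the gene counts deposited by the authors, whole numbers for 41608 genes and, beside them, 92 ERCC transcripts. Levels between genes used the FPKM values deposited by the authors, whose library denominators were 0.996 to 1.07 times the gene count sums. c-MYC peaks are SEACR lists, 1 per genotype and assigned to it by name, in which the authors give each peak's summed coverage (signal) and maximal coverage (a score here). HISAT2, Bowtie2, DESeq2, SEACR, GRCm38 and mm10 are named, with no versions, in the submitters' processing notes; the sources used here give neither the counting program nor its strand setting. Per the labels, ERCC mix 1 went into siControl and mix 2 into siHsf1 samples, yet subgroup A summed to 1.36 to 1.54 times subgroup B in siControl and siHsf1 libraries alike.

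Counts were tested in R 4.3.3 with edgeR 4.0.16 (robust quasi-likelihood, 4 group means, 8 residual degrees of freedom, filterByExpr with a minimum count of 10), on the whole table, two-sided, with Benjamini-Hochberg adjustment over 12187 genes. A gene is called at an adjusted p under 0.05. The SE is the log2 fold change divided by the root of the F statistic, and CPM uses a prior count of 2 on the log2 scale only. Scaling factors came from the summed 23 ERCC transcripts of subgroup B, a grouping written from general knowledge; their share was 0.142% to 0.356%. A count of 0 would allow 0.368 to 0.812 CPM (3 counts), counting error only. A peak belongs to a start when it overlaps 1000 bases on either side. Promoter sequences are RefSeq windows of GRCm38.p6. The test script was checked on simulated counts.

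All 10 genes are named in every comparison; from each related list, up to 4 called genes per direction with spike-in scaling, or else up to 2 with the smallest p with TMM scaling. The genes and lists were chosen with earlier results of these data known. Same-numbered libraries deviated from their group means with correlations of -0.062 to 0.10 (-0.059 to 0.10 with spike-in scaling), and the main fits did not take the numbers as pairs. Such correlations across genes cannot show a shift of a whole library, as in the spike-in share, so they do not settle this choice. Calls are from fits without a replicate block unless stated, and fits with the block are given below. The 5 comparisons were repeated with other scalings, DESeq2 1.42.0, no filter, a replicate block, fewer libraries and other peak windows.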

Additional observations from a re-analysis of the deposited data

Results flagged for a closer look

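The effect of Hsf1 knockdown differed between the GCN5 and LacZ lines by the interaction term of edgeR for 6 of the 10 genes with TMM scaling, beside 22.0% of all tested genes, and for 1 with spike-in scaling, beside 0.394%. C1qbp did so with both scalings, by 1.86 on the log2 scale with spike-in scaling (adjusted p = 0.018) and 1.51 with TMM scaling (adjusted p = 1.5e-08), GCN5 minus LacZ. Without a replicate block, the following passed with TMM scaling and not with spike-in scaling. Hspd1 differed by 1.23 (adjusted p = 6.3e-11), Trap1 by 0.66 (adjusted p = 3.5e-05), Hspe1 by 0.60 (adjusted p = 0.00056), Grpel1 by 0.29 (adjusted p = 0.042) and Hspa9 by 0.25 (adjusted p = 0.021). With a replicate block, spike-in scaling also called Hspd1 (edgeR adjusted p = 3.4e-05), Trap1 (0.018) and Hspe1 (0.029), beside 855 tested genes in all. The spike-in call of C1qbp was lost in 6 of the 12 fits that left out 1 library. The calls of Hspa9 and Grpel1 were lost in 3 and 7 of the 12 TMM-scaled fits that left out 1 library. The LacZ libraries are deeper than the GCN5 libraries, and Hsf1 was reduced less in the GCN5 line; the part of either was not tested.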

How the results depend on the processing

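Counts of genes called moved with the scaling, with the groups in the fit and with single libraries. Hsf1 knockdown in the LacZ line called 856 genes with spike-in scaling, 4944 with TMM scaling, 5042 with library totals, 4237 with DESeq2's own size factors and 129 with the 2 groups alone, where 2 of the 10 genes (Hspd1 and C1qbp) passed. In the GCN5 line the counts were 5, 20, 21 and 35, then 3 with the 2 groups alone and 0 with DESeq2 on spike-in size factors. The lines under siControl gave 183, 1171, 1136 and 877. Under siHsf1 they gave 663, 5464, 5381 and 4633, with 5 of the 10 genes in place of 2 under each of the 3 other scalings. The interaction gave 48, 2677, 2624 and 2088, with 6, 5 and 5 of the 10 in place of 1. The cause was not tested.

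The spike-in share was lowest in replicate 1 in 4 of 4 groups and highest in replicate 2 in 3 of 4. Correlations across genes cannot show such a shift. With the replicate number as a block, spike-in scaling called 9 of the 10 genes (all but Lonp1; adjusted p = 0.013 for Hspa9, 0.023 for Grpel1, 0.034 for Dnaja3, 0.035 for Clpp and 0.038 for Clpx) and 3661 genes in all for knockdown in the LacZ line, 0 and 8 in the GCN5 line, 0 and 1083 between lines under siControl, 4 and 1784 under siHsf1, and 4 and 855 for the interaction. The block with TMM scaling gave 6 and 5120, 0 and 33, 0 and 1261, 6 and 5590, and 6 and 2854.

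Leaving out 1 library at a time called 2 to 6 of the 10 genes and 167 to 3337 genes in all for knockdown in the LacZ line, with the fewest genes without siHsf1 LacZ replicate 3 and the most (6 and 3337, Hspa9 and Grpel1 being added) without siHsf1 LacZ replicate 1. The ranges were 0 and 4 to 9 in the GCN5 line, 0 and 104 to 291 between lines under siControl, 1 to 2 and 369 to 945 under siHsf1, and 0 to 2 and 35 to 268 for the interaction. The same fits with TMM scaling, an alternative chosen after seeing the data, gave 5 to 8 and 4259 to 4765, 0 and 4 to 12, 0 and 805 to 1310, 5 to 6 and 4710 to 4974, and 4 to 6 and 2142 to 2807. These ranges leave out only libraries of the groups compared. When each of the 12 libraries was left out with TMM scaling, Hspe1 was called in 1 fit for knockdown in the GCN5 line.

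All spike-in transcripts, no filter and DESeq2 on spike-in size factors kept the number of the 10 genes called in each comparison. Of 800 values of single genes under the alternatives, 731 stayed on the same side of the threshold (uncalled values count as such whatever their sign), 52 became called and 17 lost the call, and none reversed. Peaks at 10 and 8 starts were found with narrower and wider windows (250 bases and 5 kb) and with the taller part of each list.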

Other observations

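The mean coverage over a peak did not always follow its maximum. For Hspd1 with Hspe1 it was 0.00335 in WT and 0.00336 in CKO, for Lonp1 0.00335 and 0.00333, for C1qbp 0.00254 and 0.00237, and for Dnaja3 0.00220 and 0.00283, on peaks that were wider in WT. In the authors' units it was lower in CKO for Hspa9, at 0.00682 and 0.00436, for Clpp, at 0.00614 and 0.00330, and for Clpx, at 0.00308 and 0.00140. Heights rose in steps of 0.000684 in WT and of 0.000361 in CKO, so these mean coverages are not in the same unit. They do not show which list was higher per step. Of other mitochondrial genes, peaks at the start were found for 13 of 18 other chaperones in WT and 7 in CKO, for 9 and 4 of 15 other proteases, and for 18 and 9 of 18 TCA cycle enzymes. Among all tested genes the shares were 77.1% in WT and 35.1% in CKO. These shares were not tested against each other.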
